A study of Mus musculus with 1 sample.

Results

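The keratin genes of 1 mouse pancreas fibroblast culture are described here. They were taken as every row of the deposited table whose gene name is Krt, a number and at most 1 letter, which gave 51 of 23386 genes. Names of keratin-associated proteins (Krtap) and of other genes that only begin with Krt fall outside this pattern. The 51 genes were sorted by textbook role into 5 simple, 15 stratified, 8 inner root sheath and 15 hair keratins, and 8 (Krt23, Krt24, Krt42, Krt77, Krt78, Krt79, Krt80 and Krt222) were left unclassed. Of the keratins, 28 were of type I and 23 of type II.

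The RNA came from fibroblasts grown out of normal pancreas and expanded in culture, from the mixed strain background C57BL/6 and BALB/c. The genotype label gives tf1acre- and Tgfrb2flox/flox, which reads as a Cre-negative animal with floxed alleles, and how many animals gave cells is not stated. By its title the series set cancer-associated against normal fibroblasts, but the data used here are 1 library, labelled normal fibroblast, whose value column carries a CAF code that goes against the label. The library held 52494688 reads, so 1 read equals 0.0190 CPM (reads per 1000000 reads in the table) and the floor that a count of 0 allows was set at 3 reads, 0.0571 CPM, a one-sided limit that lies below the 0.0703 CPM upper end of the 2-sided interval. With 1 library there is no replicate check and no test: all intervals are exact 95% intervals for counting error only, Poisson for levels and binomial (Clopper-Pearson) for shares and ratios.

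Keratins are the intermediate filament proteins of epithelia. Each filament is built from pairs of a type I (acidic) and a type II (basic) chain, and an unpaired chain is usually degraded, so cells as a rule make both types together. Krt8 with Krt18 is the pair of simple, single-layered epithelia, joined by Krt7, Krt19 and Krt20 in ducts and gut. Krt5 with Krt14 marks the basal layer and Krt1 with Krt10 the upper layers of stratified epithelia such as epidermis, while hair and inner root sheath keratins belong to the hair follicle. Fibroblasts build their filaments from vimentin instead. In the pancreas, duct cells carry simple keratins, and the mesothelium that covers the organ does too.

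The sequences just upstream of a start site of 5 keratin genes are shown. The genes are 4 simple keratins, among them the most and the least abundant, and Krt10 as the leading stratified one. Krt19 and Krt80, next by reads after Krt18, had no promoter entry and are not shown. Each is the 150 bases before the RefSeq start site in GRCm38.p6, written in the direction of transcription, with capitals for any match to a short motif on either strand. The motifs were the TATA box, read as the letters TATAAA, and the GC box, read as GGGCGG. The others were the AP-1 motif, with the letters TGANTCA, and the box CCAAT. They lie at chr15:102028066-102028215 on the + strand, chr15:102004343-102004492 on the - strand, chr15:101412253-101412402 on the + strand, chr11:99438154-99438303 on the - strand and chr11:99389365-99389514 on the - strand. The last, of Krt10, lies within the annotated interval of the gene (99385254 to 99397449), so it precedes an inner start site.
Krt18: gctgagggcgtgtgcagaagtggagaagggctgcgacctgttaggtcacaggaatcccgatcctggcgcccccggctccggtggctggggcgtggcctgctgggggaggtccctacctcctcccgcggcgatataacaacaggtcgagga
Krt8: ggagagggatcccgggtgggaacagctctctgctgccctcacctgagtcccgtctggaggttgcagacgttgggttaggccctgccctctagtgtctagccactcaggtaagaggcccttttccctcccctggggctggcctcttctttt
Krt7: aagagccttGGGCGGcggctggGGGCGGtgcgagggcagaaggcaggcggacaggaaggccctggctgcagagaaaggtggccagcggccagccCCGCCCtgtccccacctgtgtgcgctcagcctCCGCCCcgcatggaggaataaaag
Krt20: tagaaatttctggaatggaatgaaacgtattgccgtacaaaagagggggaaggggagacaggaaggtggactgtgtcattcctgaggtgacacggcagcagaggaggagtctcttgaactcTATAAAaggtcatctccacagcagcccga
Krt10: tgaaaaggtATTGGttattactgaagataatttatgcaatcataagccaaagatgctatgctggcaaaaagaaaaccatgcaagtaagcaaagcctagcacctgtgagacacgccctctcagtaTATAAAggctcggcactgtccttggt
Krt7 held 4 GC boxes, starting 141, 128, 56 and 24 bases before the start site. Krt20 held a TATA box 29 bases and Krt10 1 at 26 bases before it, and Krt10 also held a reverse CCAAT at 141 bases. No match to these letters lay in the 150 bases of Krt18 or Krt8.

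RefSeq promoter entries were found for 34 of the 51 keratins, and the first listed was used where a gene had several. Over the 250 bases before the start site, TATAAA occurred in 16 of these 34 (47.1%), against 13.0% of 27025 mouse promoters of that length. By class it occurred in 6 of 9 hair, 6 of 7 inner root sheath, 3 of 8 stratified and 1 of 4 simple keratins. The simple keratin Krt19 had no entry and is left out here. GGGCGG went the other way, in 2 of the 34 (5.88%) against 32.9% of all promoters, and 1 of those 2 was Krt7. CCAAT was present in 12 of 34 (35.3%, against 34.5%) and the AP-1 motif in 1 (2.94%, against 6.87%). The number of CG dinucleotides in that stretch was 16 for Krt7, 12 for Krt18, 5 for Krt20 and 3 for Krt8, with a median of 8.5 for the simple keratins, 3.5 for the stratified, 2 for the hair keratins and 6 for all promoters. The matches are matches of letters only.

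The culture carried reads of simple keratins, few of stratified keratins, and hardly any of hair keratins. All 5 simple keratins had at least 10 reads, against 4 of 15 stratified, 1 of 8 inner root sheath, 0 of 15 hair and 2 of 8 unclassed keratins. That makes 12 of 51 keratins (23.5%), where 67.6% of the 20559 protein-coding genes of the library had at least 10 reads. The class of simple keratins was thus above that background share and each other class below it. With 5 members, however, the simple class is too small for a full count to stand clearly apart from 67.6%. At a threshold of 1 read, 11 of the 15 hair keratins and 13 of the 15 stratified ones counted, beside 90.9% of protein-coding genes, so the classes differ in the number of reads and less in having any. At 50 reads all 5 simple and 2 stratified keratins were left, beside 57.7% of protein-coding genes.

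All keratins together had 2636 reads, or 50.2 CPM, and 89.4% of these reads came from the top 6 genes. Simple keratins gave 1850 reads, 70.2% of the keratin reads (68.4% to 71.9%). Stratified keratins gave 194 reads (7.36%, 6.39% to 8.42%), inner root sheath keratins 31 (1.18%, 0.800% to 1.67%) and hair keratins 25 (0.948%, 0.615% to 1.40%). The other 536 reads were unclassed and nearly all from Krt80. Levels of different genes were compared per length, as RPKM (reads per kilobase of annotated exon per 1000000 reads). On that scale the sums were 17.6 RPKM for simple, 1.84 for stratified and 0.204 for hair keratins, or 81.2%, 8.52% and 0.943% of the keratin total. The median member of each class had 1.19, 0.0315 and 0.0140 RPKM in the same order, beside 1.23 RPKM for all protein-coding genes and 4.95 RPKM for those with at least 10 reads. Krt85, a hair keratin with 4 reads, had no annotated length and is left out of the RPKM values.

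**Figure D1:**
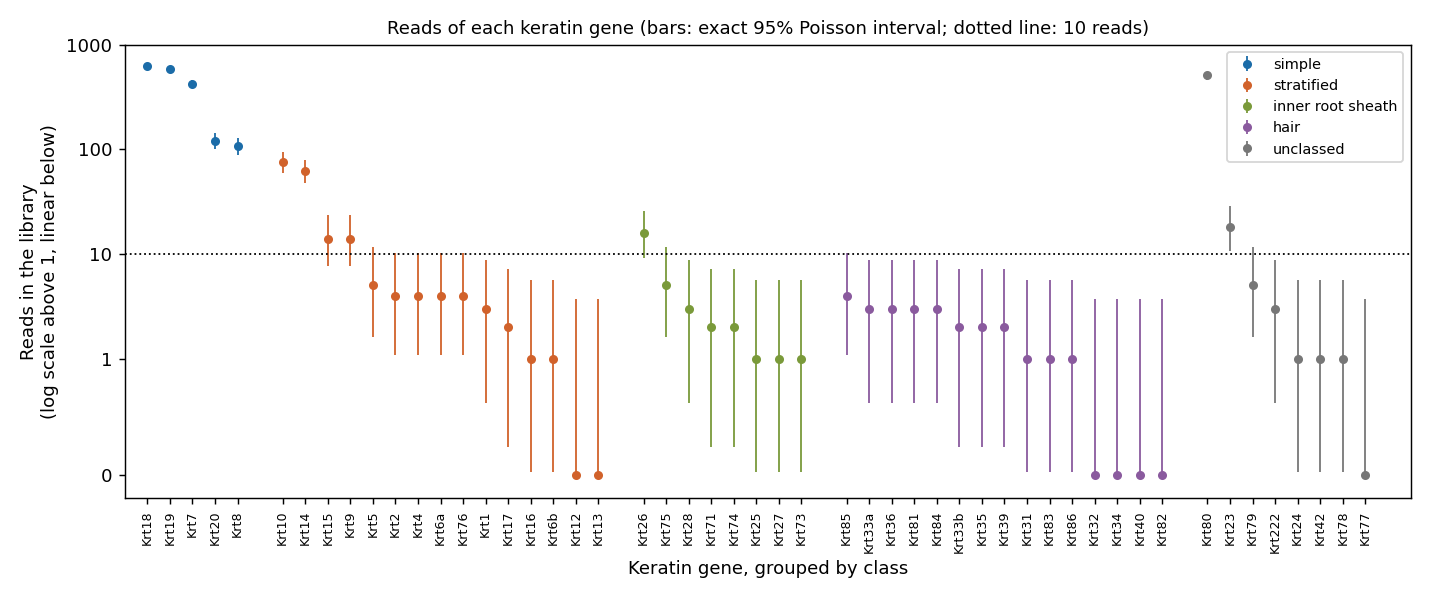
Reads of each of the 51 keratins, grouped by class along the x axis; the y axis counts reads on a log scale above 1 and a linear scale below, bars are exact 95% Poisson intervals and the dotted line is 10 reads. The 5 simple keratins lie between 107 and 620 reads, while the 15 hair keratins lie between 0 and 4.

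Krt18, the type I chain of simple epithelia (GRCm38 chromosome 15, 102028216 to 102032026), had the most reads of all keratins: 620, or 11.8 CPM (10.9 to 12.8) and 8.22 RPKM (7.58 to 8.89). Krt19, a type I keratin of ducts and glands (chromosome 11, 100140810 to 100145926), followed with 582 reads, 11.1 CPM (10.2 to 12.0) and 5.98 RPKM (5.50 to 6.48). Per length Krt18 was 1.38 times Krt19 (1.23 to 1.54). These were the only 2 keratins above the median RPKM of all protein-coding genes with at least 10 reads, a level that 34.0% of protein-coding genes reached. With the accession transcript as length only Krt18 was above that median, which was then 7.63 RPKM, and Krt19 was below it at 7.03. Even Krt18 was at rank 8569 of the protein-coding genes by reads.

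Krt7, a type II keratin of glandular and ductal epithelium and of mesothelium (chromosome 15, 101412403 to 101427806), had 421 reads, 8.02 CPM (7.27 to 8.82) and 1.14 RPKM (1.03 to 1.25). Krt20, a type I keratin of gut and bladder lining (chromosome 11, 99428385 to 99438153), had 120 reads, 2.29 CPM (1.90 to 2.73) and 1.19 RPKM (0.984 to 1.42). Krt8, the type II partner of Krt18 (chromosome 15, 101996711 to 102004342), was the lowest of the simple keratins, with 107 reads, 2.04 CPM (1.67 to 2.46) and 1.04 RPKM (0.853 to 1.26). Per length, Krt20 and Krt8 did not differ beyond counting error (ratio 1.14, 0.871 to 1.49), nor did Krt7 and Krt20 (0.959, 0.781 to 1.18).

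Krt80 was the only keratin outside the simple class with more than 76 reads. It is a type II keratin found in many epithelia (chromosome 15, 101348315 to 101370162), and it had 507 reads, 9.66 CPM (8.84 to 10.5) and 1.51 RPKM (1.38 to 1.65). Its place and that of Krt7 depend on the length used, since the annotated exons add up to 6393 bases for Krt80 and 7049 for Krt7 but to 1437 for Krt18. Divided by the transcript that carries the deposited accession, Krt80 had 3.15 RPKM and Krt7 1.96. Divided by the coding part alone, they had 7.12 and 5.85 RPKM, close to the 9.31 of Krt18 and 9.17 of Krt19, while Krt20 and Krt8 stayed at 1.77 and 1.39. Krt18 and Krt19 led, and Krt20 and Krt8 were behind Krt80, on each of the 3 lengths; Krt7 was level with or above Krt20 and Krt8.

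**Figure D2:**
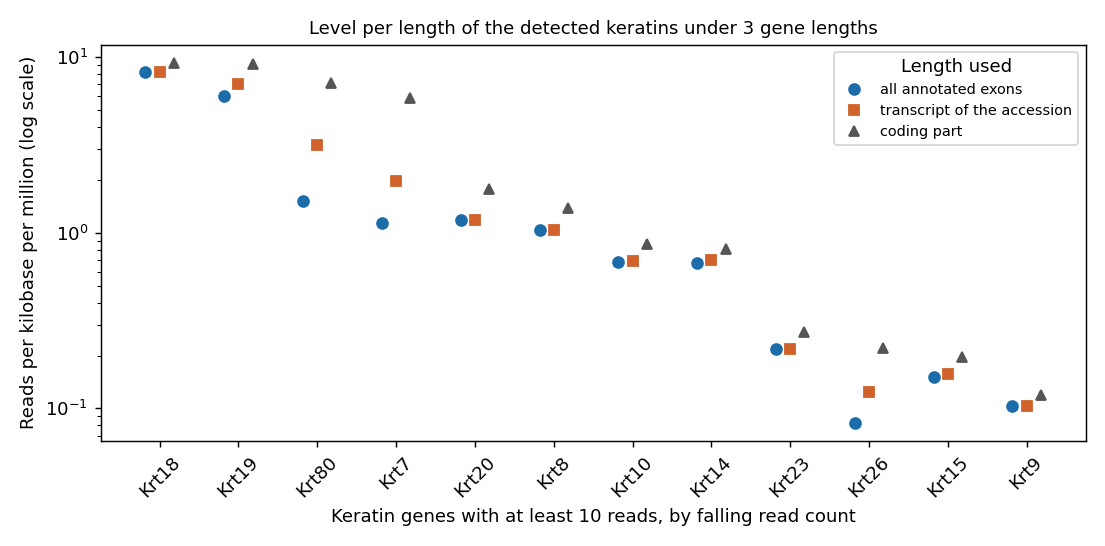
Level per length of the 12 keratins with at least 10 reads, in falling order of reads; the y axis is RPKM on a log scale, and the 3 symbols stand for division by all annotated exons, by the transcript of the deposited accession and by the coding part. Krt80 and Krt7 move most, from 1.51 to 7.12 and from 1.14 to 5.85, while Krt18 stays between 8.22 and 9.31.

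The stratified keratins that were found were nearly all of type I. Krt10, the type I keratin of the upper epidermal layers, had 76 reads (0.685 RPKM, 0.540 to 0.857), and Krt14, that of the basal layer, had 62 (0.672 RPKM, 0.515 to 0.861). The ratio of Krt10 to Krt14 was 1.02 (0.719 to 1.45). Krt15, a keratin of basal cells and of the hair follicle bulge, and Krt9, of palm and sole epidermis, had 14 reads each, or 0.151 and 0.103 RPKM. The type II members of the class all had fewer reads than these genes. Krt5, the partner of Krt14, had 5 reads, Krt1, the partner of Krt10, had 3, and Krt2, Krt4, Krt6a and Krt76 had 4 each. Krt17 had 2 reads, Krt16 and Krt6b had 1, and Krt12, the keratin of the cornea, and Krt13, of the oral and oesophageal lining, had 0.

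Hair keratins were low throughout. Their counts ran from 0 to 4 reads with a median of 2, the same median as in the inner root sheath and unclassed keratins, and 4 of the 15 (Krt32, Krt34, Krt40 and Krt82) had 0. For the 14 with an annotated length, the highest level was 0.0342 RPKM, for Krt36. The Krtap genes, whose proteins embed the keratins of the hair shaft, had few reads too. Of these 52 genes 28 had 0 reads, the median was 0 and the highest had 5, where 90.9% of protein-coding genes had at least 1 read. These counts are not divided by length, and shared sequence among the Krtap genes was not examined. Among the inner root sheath keratins Krt26 stood apart with 16 reads (0.0831 RPKM, 0.0475 to 0.135), and the other 7 had between 1 and 5. Of the unclassed keratins other than Krt80, Krt23, of type I, had 18 reads (0.219 RPKM, 0.130 to 0.346), and the other 6 had between 0 and 5. Of the 51 rows, 39 were under 10 reads and none of these had more than 5.

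Type I genes held more reads than type II genes, which had 1088. Of the 12 keratins with at least 10 reads 9 were of type I, out of 28, and 3 (Krt80, Krt7 and Krt8) of type II, out of 23. Type I genes held 1548 reads, 58.7% of the keratin reads (56.8% to 60.6%), and 81.2% of the keratin RPKM. The share was 74.1% with the accession transcript and 60.8% with the coding part as length, so its size rests on the lengths of Krt80 and Krt7, while type I stayed the larger on each scale. Krt18 and Krt19 held 620 and 582 of the 1548 type I reads, so the excess in reads over type II rests on them.

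In each of the 3 textbook pairs named above the gene of the type II chain was the lower in RNA. Krt8 had 0.127 times the RPKM of Krt18 (0.102 to 0.156), which makes Krt18 7.90 times as high (6.42 to 9.79). Krt5 had 0.0645 times the RPKM of Krt14 (0.0202 to 0.159), with 5 reads against 62, and Krt1 had 0.0189 times that of Krt10 (0.00381 to 0.0574), with 3 against 76. Krt8 was also below Krt19 (0.174, 0.140 to 0.214) and level with Krt20 (0.878, 0.670 to 1.15). Krt7 was at 0.190 times Krt19 (0.168 to 0.216) per exonic length but at 0.638 times per coding length. The pairs of Krt4 with Krt13 and of Krt6a with Krt16 or Krt17 had fewer than 10 reads together and are given no ratio. In them the type II gene had the more reads, 4 against 0 for Krt13, 1 for Krt16 and 2 for Krt17, too few to rank.

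Shared sequence bears on some of these values, because the sources used here do not state how reads with several matches were counted. Of the 35-base stretches of the annotated Krt8 transcript, 34.3% also occurred in annotated transcripts of other genes, most of them in the processed pseudogene Krt8-ps, against 7.41% for Krt18, 0.0550% for Krt19, 2.39% for Krt7, 4.01% for Krt80 and 0% for Krt20. Dividing each gene by its unshared length only would put Krt8 at 0.178 times Krt18, still below it. The place of Krt8 among Krt80, Krt7 and Krt20 was not worked out on that length. Krt8 has the largest shared part of these genes and would rise most, so its order beside them above holds for the other lengths only. Krt14 shared 24.8%, mostly with Krt16, and Krt6a and Krt6b shared 60.9% and 55.3%, mostly with each other, so single reads of these genes cannot be placed with certainty. The same holds for several hair keratins, whose shared part ran from 0% for Krt39 to 48.8% for the row deposited as Krt83. Transcripts of the opposite strand overlap 263 exonic bases of Krt80, 146 of Krt10, 101 of Krt8 and 77 of Krt7, and the strand setting of the counting is not given either. The largest such overlap was in Krt12, with 1007 of 1852 exonic bases.

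Along the chromosomes, the keratins with reads stood at different places in the 2 clusters. On chromosome 15 (101348315 to 102032026), 27 keratin genes by current name form a row, leaving out genes without a keratin name. Krt80 and Krt7 stand at the beginning, Krt8 and Krt18 at the end, and 23 between them. Krt85, a type II hair keratin with 4 reads, had no coordinates and is not placed. The 4 outer genes had 107 to 620 reads, and the 23 inner ones, which are hair, inner root sheath, stratified and unclassed keratins, had 0 to 8. Of the next genes outward, Atg101, an autophagy gene deposited as 9430023L20Rik, had 630 reads, about as many as Krt18, and Eif4b, a translation factor gene, had 9831. On chromosome 11 (99232761 to 100269951) the 8 of 27 type I genes with at least 10 reads were spread through the row, with Krt26, Krt10, Krt20 and Krt23 in its first part and Krt15, Krt19, Krt9 and Krt14 in its last, and the hair keratins between them at 0 to 3 reads. Krt19, with 582 reads, stood between Krt15 and Krt9, with 14 each. The outermost genes of this row, Krt222 and Krt42, had 3 reads and 1.

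**Figure D3:**
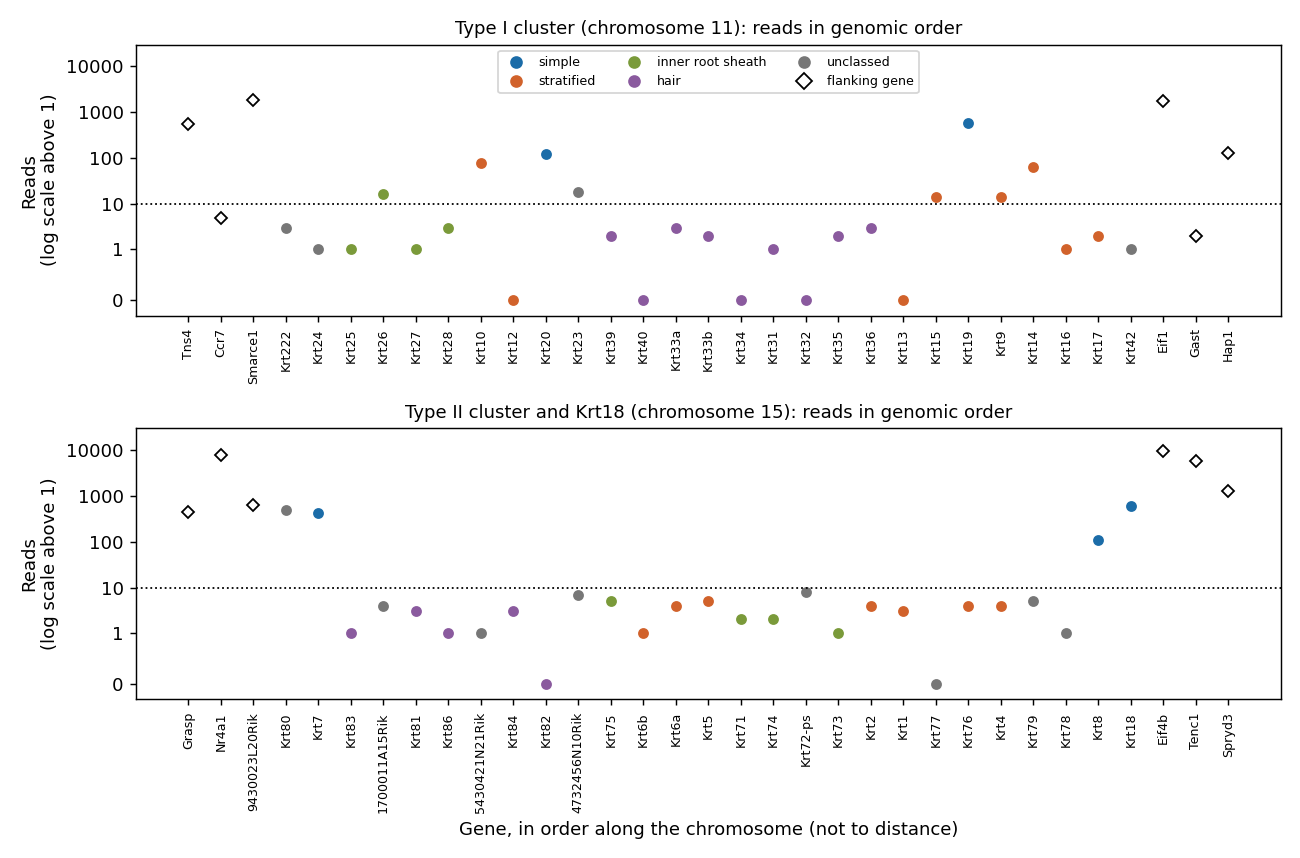
Reads of the keratins in genomic order on chromosome 11 (upper panel) and chromosome 15 (lower panel), with 3 flanking genes on each side as open diamonds; the x axis gives order and not distance, and the y axis counts reads on a log scale above 1. Labels are the deposited names, and 4 rows with other names that are now keratins are drawn as unclassed. Krt85 had no coordinates and is not drawn. On chromosome 15 the 4 outer genes stand at 107 to 620 reads and the 23 inner ones at 0 to 8.

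A further 4 keratin genes by their current names stand in the table under other names and are not among the 51. They had 8 reads (Krt72, deposited as Krt72-ps), 7 (Krt90), 4 (Krt88) and 1 (Krt83), all under 10. The row deposited as Krt83 carries the accession of the gene now called Krt87 and had 1 read.

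Genes whose products bind keratins, or act in the complexes that anchor or regulate them, were examined next. Keratin linkers here are proteins that tie filaments to junctions and the membrane, directly or through partners. All 13 of this list passed 10 reads, against 67.6% of all protein-coding genes, and their median level was 2.48 RPKM. Plec (plectin), which also binds vimentin and actin, led with 47.1 RPKM, followed by Jup (plakoglobin) at 40.7 and Dst (dystonin) at 16.5. Of the other linkers, 3 were above the 4.95 RPKM median of detected genes: Itga6, an integrin gene of hemidesmosomes, at 15.3 RPKM, Pkp2 (plakophilin) at 8.01 and Ppl (periplakin) at 5.45. Of the same junction, Itgb4 had 2.48 RPKM and Col17a1 0.219, both below that median. Dsp, the desmoplakin gene, whose product anchors keratins at desmosomes, had 0.256 RPKM (130 reads). The 7 keratin regulators, not all of which bind keratins directly, all had at least 10 reads. They were led by the kinase gene Csnk1a1 (23.1 RPKM), Pnn (7.70) and Fbf1 (5.58).

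Of 16 factors of epithelial transcription and splicing, 14 (87.5%) passed 10 reads, against 67.6% of all protein-coding genes, but the median was 0.118 RPKM and only Klf4, at 21.1, exceeded the 4.95 RPKM median of detected genes. Esrp2, an epithelial splicing regulator, had 3.25 RPKM, Klf5 2.88, and Trp63, the p63 gene of basal cells, 0.0272 RPKM with 12 reads. In the cornified envelope list, genes of the outermost epidermis, 8 of the 12 with a row (66.7%) passed 10 reads, close to the 67.6% of all protein-coding genes, with a median level of 0.182 RPKM. Cdsn (corneodesmosin) had 5.88 RPKM, Sbsn (suprabasin) 5.86 and Ivl (involucrin) 4.93, each above every stratified keratin, whereas Krtdap had 10 reads and Lor, the loricrin gene, 5. In the hair shaft list 6 of 9 (66.7%) had at least 10 reads, also close to that share, led by the regulator genes Msx2 at 0.924 RPKM (159 reads) and Hoxc13 at 0.286 RPKM (37 reads), with 35 reads for Tchh, the trichohyalin gene.

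The labelled cell type was checked against its markers and those of other cells of the organ. All 8 fibroblast markers passed 10 reads, their median level was 225 RPKM, and Vim, the vimentin gene, had 2859 CPM beside 3021 for Col1a2 and 2785 for Col1a1. Per exonic length Vim was 73.3 times as high as Krt18 (67.8 to 79.5), or 159 times with the accession transcripts. Of 8 epithelial surface genes, 7 had at least 10 reads and none was at 0. That is 87.5% of the list, beside 67.6% of protein-coding genes with at least 10 reads, a difference of under 2 genes in a list of this size. The epithelial surface genes summed to 13.7 CPM: Cdh1 (E-cadherin) had 5.26 CPM, Muc1 3.85, Ocln 2.19 and Epcam 1.16. The ductal list, also 7 of 8, summed to 48.2 CPM, led by Spp1 (28.7 CPM), Tff2 (6.59) and Cftr (4.15). The acinar list (7 of 8) summed to 291 CPM, led by Cpb1 (87.2), Pnlip (68.5) and Cela2a (54.0), and the mesothelial list (8 of 8) to 1339 CPM, led by Bnc1 (472 CPM), Lrrn4 (218) and Upk3b (145), beside 35.2 CPM for the 5 simple keratins. By median level the mesothelial list stood at 36.6 RPKM, the acinar at 20, the ductal at 0.721 and the epithelial surface list at 0.448. All 8 fibroblast, all 8 mesothelial, 6 acinar, 2 ductal and 0 epithelial surface genes reached the 4.95 RPKM median of detected genes. Bnc1, at 102 RPKM, was above Dcn (89.2), Pdgfrb (83.8) and Pdgfra (36.5) and below the other fibroblast markers. The part of epithelial, ductal or mesothelial cells in the keratin reads was not tested, and in bulk RNA a few cells with much of a transcript and many cells with little cannot be told apart.

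**Figure D4:**
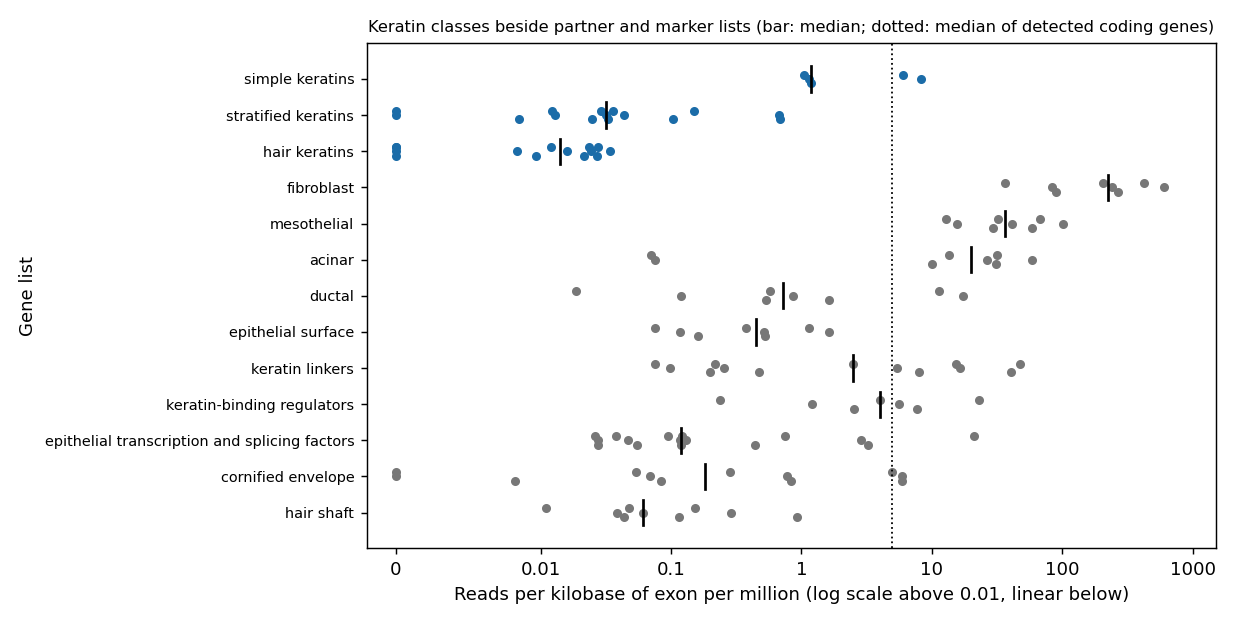
RPKM of the members of 3 keratin classes (blue) and of the partner and marker lists (grey); the x axis is on a log scale above 0.01 and linear below, vertical bars are list medians and the dotted line is the 4.95 RPKM median of detected protein-coding genes. The median is 1.19 for simple, 0.0315 for stratified and 0.0140 for hair keratins, against 225 for the fibroblast markers. Krt85, a hair keratin without an annotated length, is not drawn.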

How the data were processed

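RNA of 1 culture labelled normal fibroblast was extracted with TRIzol and, per the labels' protocols, sequenced on SOLiD libraries. The authors' deposited values are a normalised signal per gene: per the file headers the table gives a symbol, RefSeq accessions and 1 value column. Per the submitters' processing notes DESeq and mm10 were involved, with no role named; for the aligner, counter and filters, none of the sources used here gives a name. All 20976 values above 0, divided by 1 common step (1.17607, rounded here), were within 0.01 of a whole number. These whole numbers were taken as the reads. On simulated libraries this recovery returned 100% of 24214 rows. Copies of a gene name were summed. RPKM used exon unions of GENCODE M21 (found for 98.9% of protein-coding genes, and 50 of 51 keratins); coordinates and promoters are RefSeq's, GRCm38.p6. Intervals and floors cover counting error only, and reads are not independent molecules.

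Protein-coding here means a gene with an NM accession. Detection meant 10 reads. Named were all keratins with at least 10 reads, the simple keratins, and of each other list the 3 most abundant members and a few genes set by name; other keratins and list members were named after their values were seen. Classes, lists and pairs were chosen with earlier results of these data known. Alternatives changed the detection threshold, length, pseudocount, total and class members. The scripts ran in Python 3.11.15 with scipy 1.17.1 for intervals, pandas 2.3.3 and numpy 2.4.6 for tables, and matplotlib 3.10.9. A part of the genotype label is not reported here.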

Additional observations from a re-analysis of the deposited data

How the results depend on the processing

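No paired analysis was possible because there is 1 sample, and no replicate could be left out. Of 66 alternative values, 37 stayed within counting error (for counts, within 1.5 times). Some of these 37 could not move, so their number does not measure robustness. Each keratin had 1 row, so keeping rows apart changed no count. Joining the inner root sheath to hair could not change the simple or stratified share, and counting Krt80 as simple could not change the stratified or hair share. With detection at 1 read, 13 stratified, 8 inner root sheath, 11 hair, 7 unclassed and 44 keratins in all counted; at 50 reads 2 stratified, 0 inner root sheath and 1 unclassed did. The simple share of keratin RPKM, 81.2%, was 70.2% without division by length, 72.3% by coding length, 76.9% by accession transcript, 84.0% without the leading member of each class and 88.2% with Krt80 counted as simple. The stratified share, 8.52%, was 6.05% by coding length and 10.4% without leading members, and the hair share was 1.83% without leading members and 1.95% with the inner root sheath added. The type I share was 58.7% without length, 60.8% by coding length and 74.1% by accession transcript. The median of log2(RPKM + 0.5) was 0.75 for simple, -0.91 for stratified and -0.96 for hair keratins; as log2(RPKM + 5), a scale that starts higher, it was 2.63, 2.33 and 2.33. With only members of at least 10 reads the stratified median of log2(RPKM + 0.5) was -0.20; no hair keratin was left there. Krt8 to Krt18 was 0.173 without length and 0.178 by unshared length, and Krt7 to Krt19 was 0.723 without length, 0.638 by coding length and 0.278 by accession transcript. Accession and unshared lengths, the type I share and Krt80 as simple were chosen after seeing the data. With 52494688 reads, keratins of 0 to 5 reads cannot be ranked among themselves.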
